A study of Mus musculus with 21 samples.

Results

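Spiral ganglion neurons (SGNs) of newborn mice, at postnatal day 1 (P1), were compared with SGNs of mature mice, at P30, by RNA-Seq with 3 libraries per age. Genes with more than 1 CPM (counts scaled to a common library total) in all 3 libraries of P1 or of P30 were taken, which gave 13879 of the 52550 genes in the count table. Of these, 11540 passed at both ages, 1681 through P1 alone and 658 through P30 alone, and a gene that passed through 1 age alone had to be lower in part of the other. The 6 libraries belong to a series of 21, in which SGNs of 3 further ages (embryonic day E15.5, P8 and P14) and libraries of hair cells (HCs) and glia make up the rest. At both ages the neurons came from C57BL/6 mice with the *ShhCre/+* knock-in and 1 copy of the Ai9 reporter (*Rosa26-CAG-loxp-stop-loxp-tdTomato*), in which *Shh*-driven Cre marks cochlear SGNs with tdTomato. Marked cells were picked by hand after pronase digestion, and the labels list 195, 140 and 150 cells for the P1 libraries and 114, 90 and 90 cells for those of P30. The study kept only samples that passed a qPCR check of marker genes of SGNs and of other cells. The labels do not say whether libraries came from separate animals, so p-values measure the spread between these samples, which may in part be technical. Nor do they separate the subtypes of SGN or the turns of the cochlea, so each library is a mixture of them.

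SGNs are the bipolar neurons that carry sound signals from the hair cells to the cochlear nucleus of the brainstem. At birth they are still extending and trimming axons, before the onset of hearing in the mouse, which falls in the second postnatal week. In the adult they are myelinated, fire at high rates, and rely on clustered sodium and potassium channels and on glutamate release with precise timing.

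Levels are given as normalized CPM, in which counts were scaled by the sum over the compared genes and a TMM factor for each library. A gene was called when the fit of limma-voom gave a Benjamini-Hochberg adjusted p under 0.05 and a change over 2-fold. All log2 fold changes are P30 minus P1, ± SE, and the adjusted p-values come from that fit. By this rule 1500 genes were higher at P30 (10.8% of those compared) and 1482 were higher at P1 (10.7%). The 10.8% and 10.7% are the background for each list of genes below. Changes over 8-fold were called for 250 genes toward P30 and 398 toward P1, and changes over 32-fold for 66 and 107. The P1 libraries had 15236 to 15884 genes over 1 CPM and the P30 libraries 13201 to 14372 (two-sided exact permutation p = 0.1). With counts thinned to the smallest library, the ranges were 15266 to 15799 and 13216 to 14372. More cells were picked for every P1 library than for any P30 library. The part of these differences in the larger falls was not tested. With library size as the only scaling, the median over all genes moved from -0.09 to -0.40, with 928 genes higher at P30 and 2373 higher at P1. Genes higher at P30 were thus 50.3% of the calls with TMM and 28.1% with library size alone, and the changes below are relative to the TMM scale. Levels are shares of a bulk sample, so fewer cells of a type and less RNA per cell cannot be told apart.

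**Figure D1:**
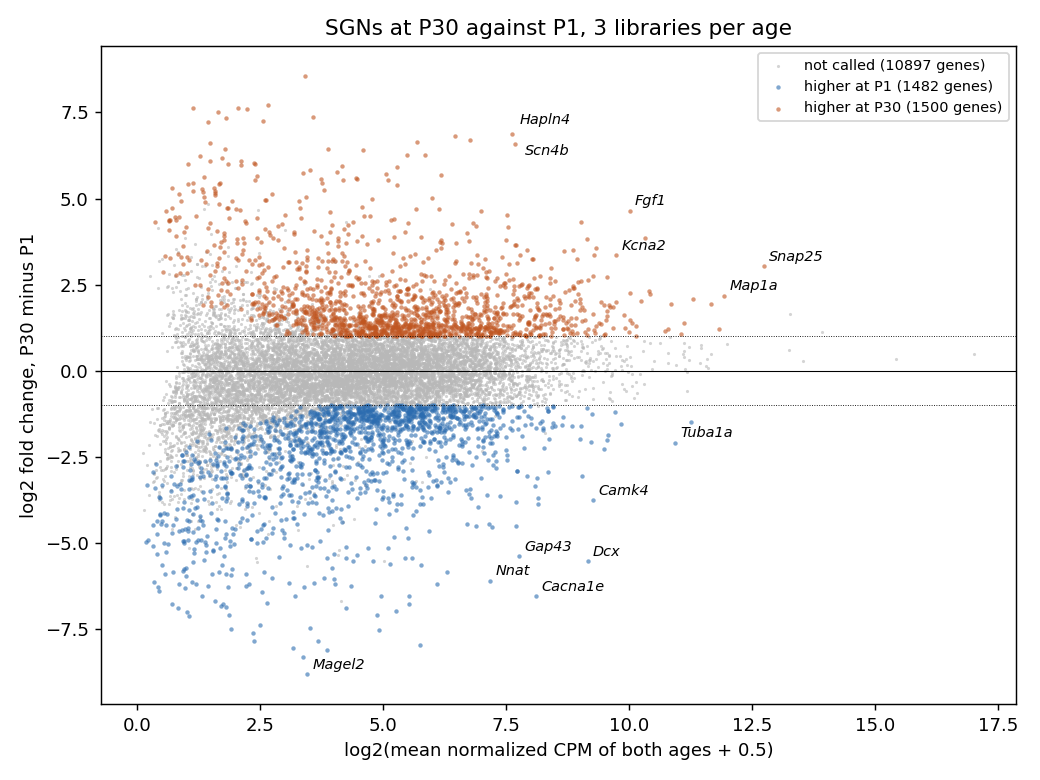
Each point is a gene, with the log2 of its mean normalized CPM over both ages on the horizontal axis and the log2 fold change, P30 minus P1, on the vertical axis. The 1500 genes higher at P30 are orange, the 1482 higher at P1 are blue, dotted lines mark a 2-fold change, and the labels name genes described in the text.

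The picked cells held SGN genes at both ages. The 12 SGN markers summed to between 4964 and 6469 CPM at P1 and between 13926 and 14701 CPM at P30, a difference carried mostly by *Snap25*. The 13 HC markers summed to between 571 and 1080 CPM at P1 and between 328 and 475 CPM at P30, against 10734 to 11762 CPM in the HC libraries. The 17 glial markers summed to between 254 and 502 CPM at P1 and between 316 and 744 CPM at P30, against 20782 to 27064 CPM in the glial libraries. Of the markers compared, none of 12 HC genes and 1 of 13 glial genes was called, the calcium-binding protein gene *S100b*. *S100b* was higher in the P30 SGNs than in the glia, with 241, 272 and 275 CPM against 30.8, 37.3 and 10.6 CPM. It made up most of the glial marker sums of P30 replicates 2 and 3, which were 429 and 316 CPM. The P30 sums are therefore not a measure of glial RNA alone. Replicate 1 stood apart at both ages. The 6 endothelial markers summed to 267 CPM in P1 replicate 1 and to 0.799 and 1.83 CPM in the other P1 libraries, and the 12 connective tissue markers to 1383 CPM there against 137 and 90.0 CPM. In P30 replicate 1 the connective tissue markers summed to 217 CPM, against 12.9 and 7.65 CPM, with 0 of 12 markers at 0 counts there and 4 and 7 at 0 in the others. Without both replicate 1 libraries 1069 genes were higher at P30 and 958 higher at P1, of which 994 and 870 were also called with them, that is 66.3% and 58.7% of the original calls. Endothelial markers summed to 7.64, 1.96 and 0.518 CPM in the P30 libraries, and the part of these cells in the results was not tested. Total counts ranged from 20384100 to 37287489, so a count of 3 equals 0.0805 to 0.147 CPM.

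The largest changes were taken among called genes with CPM over 10 in all libraries of 1 age and no overlap between ages. Among the 12 largest rises were 2 subunits of nicotinic acetylcholine receptors (*Chrna6*, *Chrnb3*), a sodium channel subunit (*Scn4b*), a link protein of the perineuronal matrix (*Hapln4*) and a receptor of corticotropin-releasing hormone (*Crhr1*). *Hapln4* (ENSMUSG00000007594.10, chr8:70083457-70090862 of GRCm38) had 3.31, 3.80 and 2.80 normalized CPM at P1 and 340, 445 and 385 at P30. It rose by 6.86 ± 0.42 (adjusted p = 1e-08), and the 3 libraries of each age lay close together. *Scn4b* (ENSMUSG00000046480.6, chr9:45138395-45154152), the β4 subunit linked with rapid repetitive firing, had 3.95, 5.00 and 3.81 at P1 and 366, 451 and 404 at P30. It rose by 6.58 ± 0.44 (adjusted p = 2.1e-08). *Chrnb3* had 1.83, 0.226 and 7.82 at P1 against 169, 132 and 214 at P30, and rose by 6.81 ± 0.93 (adjusted p = 3.7e-05). Its neighbor *Chrna6* had 0.376, 0.0752 and 4.54 against 43.5, 36.9 and 56.1. For both receptor genes the P1 libraries differed among themselves far more than those of P30, with P1 replicate 3 the highest. *Bag3*, a co-chaperone of Hsp70 in the clearance of damaged proteins, had 9.25, 1.54 and 0.324 at P1 and 261, 134 and 241 at P30, and rose by 6.70 ± 1.15 (adjusted p = 0.00032). *Crhr1* had 0.860, 0.263 and 4.05 at P1 and 79.3, 85.6 and 139 at P30. The 6 further rises, of *Tcap*, *Ankrd34c*, *Ccbe1*, *Sowahb*, *Myom3* and *Nxph4*, were between 5.82 and 6.43. *Tcap*, which encodes a protein of the muscle sarcomere, is the 1 of the 12 that was not called without P1 replicate 1. Of genes at higher levels, the growth factor gene *Fgf1* had 62.1, 83.2 and 94.0 at P1 and 1826, 1687 and 2418 at P30, and rose by 4.65 ± 0.24 (adjusted p = 1.7e-09).

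The 12 largest falls included the calcium channel genes *Cacna1e* and *Cacng4*, the synaptotagmin gene *Syt17*, the copine gene *Cpne5* and the imprinted gene *Magel2*. Also among them were *Fbln1* (-6.88), a connective tissue marker, and *Itga8*, with a mean of 52.8 CPM in the glial libraries against 30.5 CPM at P1. *Igfbpl1* and *Stk32b* had 0.152 and 0 CPM in the glial libraries. The part of other cell types in these falls was not tested. *Cacna1e* (ENSMUSG00000004110.15, chr1:154390731-154884501), the pore of R-type calcium channels, had 566, 489 and 573 normalized CPM at P1 and 15.8, 4.31 and 1.82 at P30. It fell by 6.55 on the log2 scale (SE 0.75, adjusted p = 6e-06), and every P1 library lay far above every P30 library. *Camk4*, a calcium-dependent kinase gene, had 1246, 1202 and 984 at P1 and 111, 84.1 and 60.7 at P30, and fell by 3.76 (SE 0.25, adjusted p = 1.9e-08). *Magel2* (ENSMUSG00000056972.6, chr7:62377010-62381640) had 14.4, 28.0 and 20.3 at P1 and 0.122, 0 and 0 at P30, where the first value stands for 4 counts. Its fitted change of -8.81 ± 1.62 rests on those few counts. *Igfbpl1*, *Itga8*, *Stk32b* and *Ly6h* likewise had counts in P30 replicate 1 and 0 in the other P30 libraries. *Fxyd7*, a regulator of the sodium-potassium pump, had 45.5, 41.6 and 61.0 at P1 and 25.2, 0 and 0 at P30, so that 1 library held all of its P30 signal, and it was not called without P30 replicate 3, by edgeR or with a replicate block on the 6 libraries. No gene had CPM over 10 in all libraries of 1 age and at most 3 counts in each library of the other. Without the replicate 1 libraries 11 genes met this rule at P1 (*Itga8*, *Igfbpl1*, *Stk32b*, *Fxyd7*, *Nell1*, *Magel2*, *Tmem200a*, *Dcn*, *Ly6h*, *B3gnt5* and *Cpne5*) and 1 at P30 (*Gm13446*). In these 4 libraries the P1 level was at least 207-fold higher for *Itga8*, 383-fold for *Fxyd7* and 179-fold for *Magel2*, against 3 counts in the shallower of the P30 libraries. The rule that chose the genes required a large difference in these same libraries, so these values only describe them. The omitted P30 replicate 1 held 22.2 CPM of *Fxyd7*, against 44.1 and 68.7 CPM in P1 replicates 2 and 3. It held 0.831 CPM of *Itga8* and 0.107 CPM of *Magel2*.

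**Figure D2:**
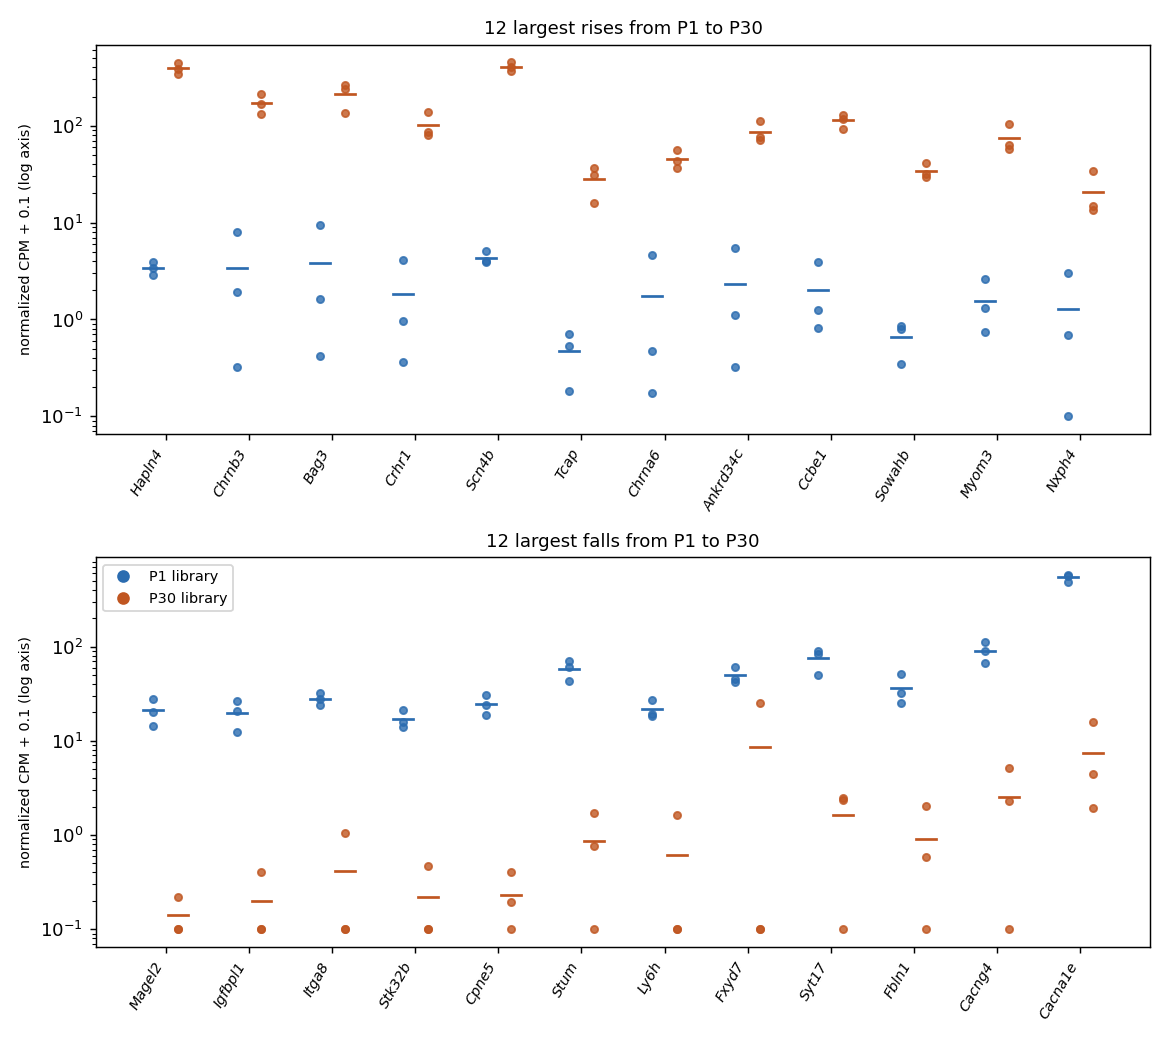
Normalized CPM plus 0.1 (log axis) of the 12 largest rises (top) and falls (bottom), with a point per library, blue for P1 and orange for P30, and a bar at the mean of 3. All P30 points of *Hapln4* lie at 340 or above and all its P1 points at 3.80 or below, while *Fxyd7* has 1 P30 point at 25.2 and the others at 0.

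Promoters are shown of 2 of the genes with the largest rises and of *Dcx* and *Celf3*, which fell and whose windows held other motifs, as the 250 bases before the RefSeq start (GRCm38.p6), written 5′ to 3′ on the strand of the gene. Capitals mark a motif of those searched for, and the genes were chosen after the matches were seen. *Scn4b* (chr9:45138374-45138623, plus strand) held none of the 8 motifs. *Bag3* (chr7:128523333-128523582, plus strand) held TGACTCA, the element bound by AP-1, with its first base 20 bases before the start. *Dcx* (chrX:143933220-143933469, minus strand) held TATAAA 98 bases before its first listed start. *Celf3* (chr3:94484108-94484357, plus strand), an RNA-binding protein gene that fell, held TGACGTCA, the cyclic AMP response element, 139 bases before its second listed start. Of its 7 listed starts, 3 held TGACGTCA, 2 held TATAAA and 2 held none of the motifs. Among windows not printed here, that of *Magel2*, which fell, held TGACTCA and TATAAA. The window of the second listed start of *Etv1*, which rose, held TATAAA and TGCTGAC.
Scn4b: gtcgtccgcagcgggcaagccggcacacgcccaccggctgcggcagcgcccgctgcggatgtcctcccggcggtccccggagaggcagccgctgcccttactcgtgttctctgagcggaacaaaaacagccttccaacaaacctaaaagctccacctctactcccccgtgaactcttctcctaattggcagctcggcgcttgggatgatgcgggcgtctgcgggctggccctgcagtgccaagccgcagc
Bag3: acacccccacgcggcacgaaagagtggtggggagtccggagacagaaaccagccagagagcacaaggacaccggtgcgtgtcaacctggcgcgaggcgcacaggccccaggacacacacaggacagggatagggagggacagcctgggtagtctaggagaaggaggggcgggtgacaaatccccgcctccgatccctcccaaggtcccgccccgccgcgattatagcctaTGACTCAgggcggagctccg
Dcx: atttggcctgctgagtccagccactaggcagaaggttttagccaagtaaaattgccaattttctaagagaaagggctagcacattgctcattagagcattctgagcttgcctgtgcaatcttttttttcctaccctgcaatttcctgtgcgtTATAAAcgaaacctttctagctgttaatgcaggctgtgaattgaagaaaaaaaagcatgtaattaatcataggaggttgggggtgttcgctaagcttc
Celf3: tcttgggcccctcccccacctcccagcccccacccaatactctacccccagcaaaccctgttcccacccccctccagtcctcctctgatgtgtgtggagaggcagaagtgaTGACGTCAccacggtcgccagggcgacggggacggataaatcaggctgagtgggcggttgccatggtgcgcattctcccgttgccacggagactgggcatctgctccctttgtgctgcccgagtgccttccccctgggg

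The 8 motifs were counted on both strands of the 12775 RefSeq windows, each from 250 bases before to 50 bases after a start, that 9893 of the compared genes had. There were 1522 windows of genes higher at P30, from 1129 genes, and 1396 of genes higher at P1, from 1047 genes. Windows of 1 gene can overlap and hold the same match. The intervals below take each window as separate, so they are too narrow. TGCTGAC, part of the element bound by Maf proteins, was in 4.93% of windows of genes higher at P30 (Wilson 95% interval 3.95 to 6.13), in 2.87% of windows of genes higher at P1 (2.11 to 3.88) and in 3.64% of all windows. CCGGAAGT, an ETS element, was in 4.01% and 4.51% of the windows of called genes and in 7.78% of all. TGACTCA was in 4.66%, 3.15% and 3.49%, in the same order, and can share the letters TGAC with TGCTGAC. TGACGTCA was in 3.48%, 2.08% and 3.08%, and TATAAA in 6.57%, 8.24% and 6.84%. The element of estrogen-related receptors, TCAAGGTCA, was in 0.263%, 0.501% and 0.321%, TTTCGCGC of E2F in 0.394%, 0.645% and 0.611%, and ATTGATTA in 0.263%, 0.287% and 0.29%, the last a motif of Onecut proteins. Median GC content was 61.3% for windows higher at P30, 62.5% for those higher at P1 and 61% for all. A match is a description of these letters and not of binding.

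Genes of electrical excitability moved in both directions, with more rises than the background among potassium channels and more falls among calcium channels. Of 22 genes of sodium channels, nodes and initial segments, 7 were higher at P30 and 4 higher at P1 (median 0.51). *Scn8a*, the main sodium channel of mature nodes, had 110, 171 and 173 normalized CPM at P1 and 779, 973 and 927 at P30, and rose by 2.60 ± 0.20 (adjusted p = 1e-07). *Scn3a*, the sodium channel of immature neurons, had 128, 158 and 192 at P1 and 27.2, 18.9 and 26.6 at P30, and fell by 2.67 (SE 0.33, adjusted p = 1.5e-05). At P1 the levels of the 2 genes overlapped, and at P30 every library had far more *Scn8a*. Other rises were of *Scn1a* (1.61), *Scn4b*, *Nfasc* (1.11), *Cntnap1* and the channel partner *Fgf12* (3.23), and the other falls of *Scn2a*, *Scn9a* and *Scn3b*. *Cntnap1* lay at the 2-fold limit and was not called without P1 replicate 1 or P30 replicate 3, by edgeR or DESeq2, with library size, sample weights or a stricter filter, or with a replicate block. *Scn3b* had 196, 195 and 172 at P1 and 69.5, 7.66 and 3.59 at P30, so that P30 replicate 1 lay well above the other 2. The scaffold genes *Ank2* (0.50 ± 0.11) and *Sptbn1* (0.18 ± 0.11), among the most abundant of the list, were not called.

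Of 48 potassium and HCN channel genes, 22 were higher at P30 and 7 higher at P1 (median 0.83). *Kcna2*, a low-threshold Kv1 channel that limits repetitive firing, had 130, 167 and 155 normalized CPM at P1 and 1429, 1624 and 1574 at P30, and rose by 3.36 ± 0.20 (adjusted p = 7.1e-09). Its partner subunit *Kcnab2* rose by 2.98 ± 0.20 and the fast Kv3 channel *Kcnc1* by 2.39 ± 0.16. *Kcna1* (2.36) and *Hcn2* (2.65), which encodes a pacemaker channel, rose too. *Kcnq3*, a subunit of the M-current, had 430, 641 and 501 at P1 and 201, 175 and 162 at P30, and fell by 1.51 (SE 0.21, adjusted p = 4.8e-05). *Kcna6* fell by 1.70, the sodium-activated *Kcnt1* by 1.26 and the calcium-activated *Kcnn1* and *Kcnn2* by 1.62 and 1.30, and *Dpp10* and *Kcnmb4* were also higher at P1. *Kcnn1* and *Kcnn2* were not called without P1 replicate 2 or 3 or without any 1 of the P30 libraries, and *Dpp10* was not called without P30 replicate 2 or 3. The count of falls was 4 without P30 replicate 3 and 12 with library size as the only scaling.

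Of 19 voltage-gated calcium channel genes, 8 were higher at P1 and 2 higher at P30 (median -1.23). Beside *Cacna1e*, the falls were of the pore subunits *Cacna1b* (N-type), *Cacna1d* (L-type) and *Cacna1h* (T-type) and of *Cacnb1*, *Cacna2d1*, *Cacng4* and *Cacng5*. *Cacna1d* had 228, 213 and 282 normalized CPM at P1 and 69.1, 67.4 and 54.8 at P30, and fell by 1.90 (SE 0.23, adjusted p = 8.9e-06). *Cacna1b* had 190, 166 and 218 at P1 and 75.8, 40 and 34.6 at P30, and fell by 1.94 (SE 0.26, adjusted p = 2.6e-05). For both genes the ages did not overlap. The rises were of *Cacng7* (1.18 ± 0.17) and *Cacnb4* (1.02 ± 0.22), and *Cacnb4* was not called without P1 replicate 1 or without P30 replicate 2. *Cacnb1* was not called without P30 replicate 3. The P/Q-type pore *Cacna1a* was not called.

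Receptors for fast transmitters had calls in both directions. Of 19 glutamate receptor genes, 2 were higher at P30 (10.5%, near the background) and 5 higher at P1 (26.3%), with a median of 0.04. *Grin1*, the obligatory NMDA subunit, had 95.4, 92.8 and 95.0 normalized CPM at P1 and 204, 188 and 180 at P30 (1.02 ± 0.15). *Grin1* lay at the 2-fold limit. It was not called with library size alone, sample weights or a filter at CPM over 10, or without both replicate 1 libraries (0.97). The NMDA subunits *Grin2d*, *Grin2a* and *Grin3a* and the kainate subunits *Grik3* and *Grik5* fell. The calls of *Grin2a* without P30 replicate 1, of *Grin3a* without P30 replicate 3 and of *Grik3* without P1 replicate 1 or 2 or P30 replicate 2 or 3 were lost. The AMPA subunits that could be compared were not called, among them *Gria2* (0.86 ± 0.24), *Gria3* (-0.71 ± 0.22) and *Gria4* (0.07 ± 0.23). *Grin2c* was not called without P1 replicate 1 or 2 or P30 replicate 1 or 3. Calls toward P30 numbered 1 without P1 replicate 1, P1 replicate 2 or P30 replicate 3, and 4 without P1 replicate 3. They numbered 0 with library size alone, with a filter at CPM over 10 and without both replicate 1 libraries. Calls toward P1 numbered 3 without P30 replicate 3. Of 17 genes of GABA and glycine receptors and chloride cotransporters, 4 were called in each direction (median 0.07). *Glrb*, the β subunit of glycine receptors, had 25.5, 25.0 and 27.1 at P1 and 147, 191 and 222 at P30 (2.81 ± 0.26, adjusted p = 6.9e-07), and *Glra2*, an α subunit, fell from 6.72, 8.58 and 8.39 to 0.487, 0.101 and 0.766. Without P1 replicate 1 the calls toward P30 in this list numbered 1.

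**Figure D3:**
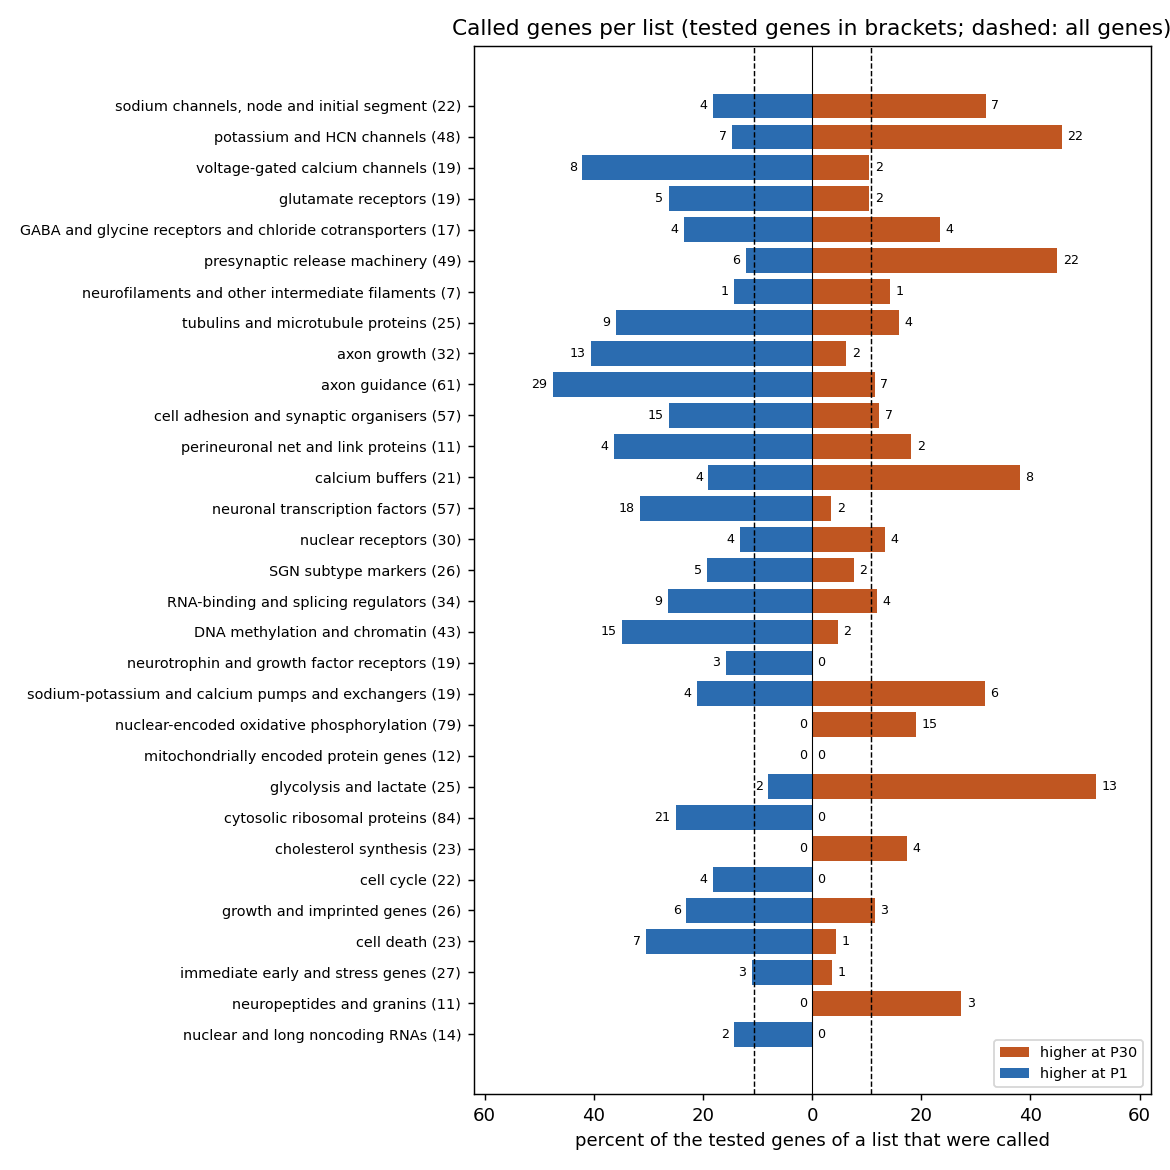
Bars give the percent of the compared genes of each list that were called higher at P30 (orange, to the right) and higher at P1 (blue, to the left), with the number of genes at the end of each bar and the number compared in brackets. Dashed lines mark the percent over all genes, 10.8% and 10.7%, and the longest bars are glycolysis toward P30, with 13 of 25, and axon guidance toward P1, with 29 of 61.

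Genes of transmitter release rose more often than the background. Of 49 genes of the presynaptic release machinery, 22 were higher at P30 and 6 higher at P1 (median 0.89). *Snap25* (ENSMUSG00000027273.13, chr2:136713453-136782428), a SNARE protein of vesicle fusion, had 1312, 1932 and 1279 normalized CPM at P1 and 12743, 10628 and 12984 at P30, the highest P30 levels of a gene of this list. It rose by 3.04 ± 0.12 (adjusted p = 9.8e-11). In the fit of all genes with no filter on low counts its change was 3.14 but it was not called (adjusted p = 0.42). *Nsf*, the ATPase that recycles SNARE complexes, had 134, 189 and 158 at P1 and 965, 997 and 1225 at P30 (2.74 ± 0.16). *Vamp1* rose by 3.36 ± 0.27, the calcium sensor *Syt2* by 2.63 ± 0.23 and the vesicular glutamate transporters *Slc17a6* by 1.78 ± 0.23 and *Slc17a7* by 1.08 ± 0.29. *Slc17a7* had 99.7, 185 and 117 at P1 and 298, 314 and 208 at P30, and was not called without P1 replicate 1. The falls were of *Syt5*, *Stx1a*, *Cplx2*, *Syn3*, *Synpr* and *Unc13b*, and 4 of these belong to families with a called rise. *Synpr* was not called without P30 replicate 2 or 3, by edgeR or DESeq2, with the 6 libraries alone, with no filter or with a replicate block.

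Of 172 groups of genes that share a symbol stem within a list, 73 had at least 2 called genes, and 26 of these had calls in both directions. No comparison value was computed for that count. The calcium sensor *Syt2* had 114, 208 and 164 normalized CPM at P1 and 796, 1014 and 1129 at P30, while *Syt5* had 29.1, 36.3 and 23.4 and then 3.53, 0.304 and 0.192. The complexin *Cplx1* rose by 1.46 and *Cplx2* fell by 2.07. The α-tubulin *Tuba4a* rose from 65.0, 103 and 90.9 to 326, 274 and 342, while *Tuba1a* fell from 3243, 3493 and 2661 to 1095, 536 and 625. Even at P30 the normalized CPM of *Tuba1a* was above that of *Tuba4a* in every library. In other pairs the order of the levels turned over. The β-tubulin *Tubb2b* had 427, 513 and 635 at P1, above *Tubb4b* with 64.8, 97.2 and 57.9, and at P30 it had 65.6, 18.9 and 27.1 against 249, 198 and 248. The adhesion molecule *Cadm1* had 512, 551 and 456 at P1, above *Cadm3* with 217, 198 and 222, and at P30 it had 133, 103 and 84.7 against 665, 477 and 626. These orders are of counts, not per gene length. Reads of genes that share exon sequence with a neighbor could not be separated here, since the use of strand in counting is not given in the sources used here; genes that share exon sequence with a protein-coding neighbor include *Map1a*, *Tuba4a*, *Tubb4b*, *Nefl* with *Nefm*, *Nrn1*, *Has3*, *Aldoa*, *Pfkp*, *Cox4i1*, *Celf3*, *Hpca*, *Thra*, *Cbx6*, *Cbx7*, *Syn3*, *Cadm3*, *Pcsk1n*, *Lypd1*, *Shox2* and *Cacna1d*, and others, such as *Grin1*, *Dnmt3a* and *Srrm4*, overlap noncoding or antisense genes. RNA-binding proteins of the Celf family split with *Celf4* up by 1.96 ± 0.33 and *Celf1*, *Celf2*, *Celf3* and *Celf5* down, and *Celf3* fell by 3.37 (SE 0.36, adjusted p = 3e-06). *Celf1* was not called without P1 replicate 3 or P30 replicate 1.

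**Figure D4:**
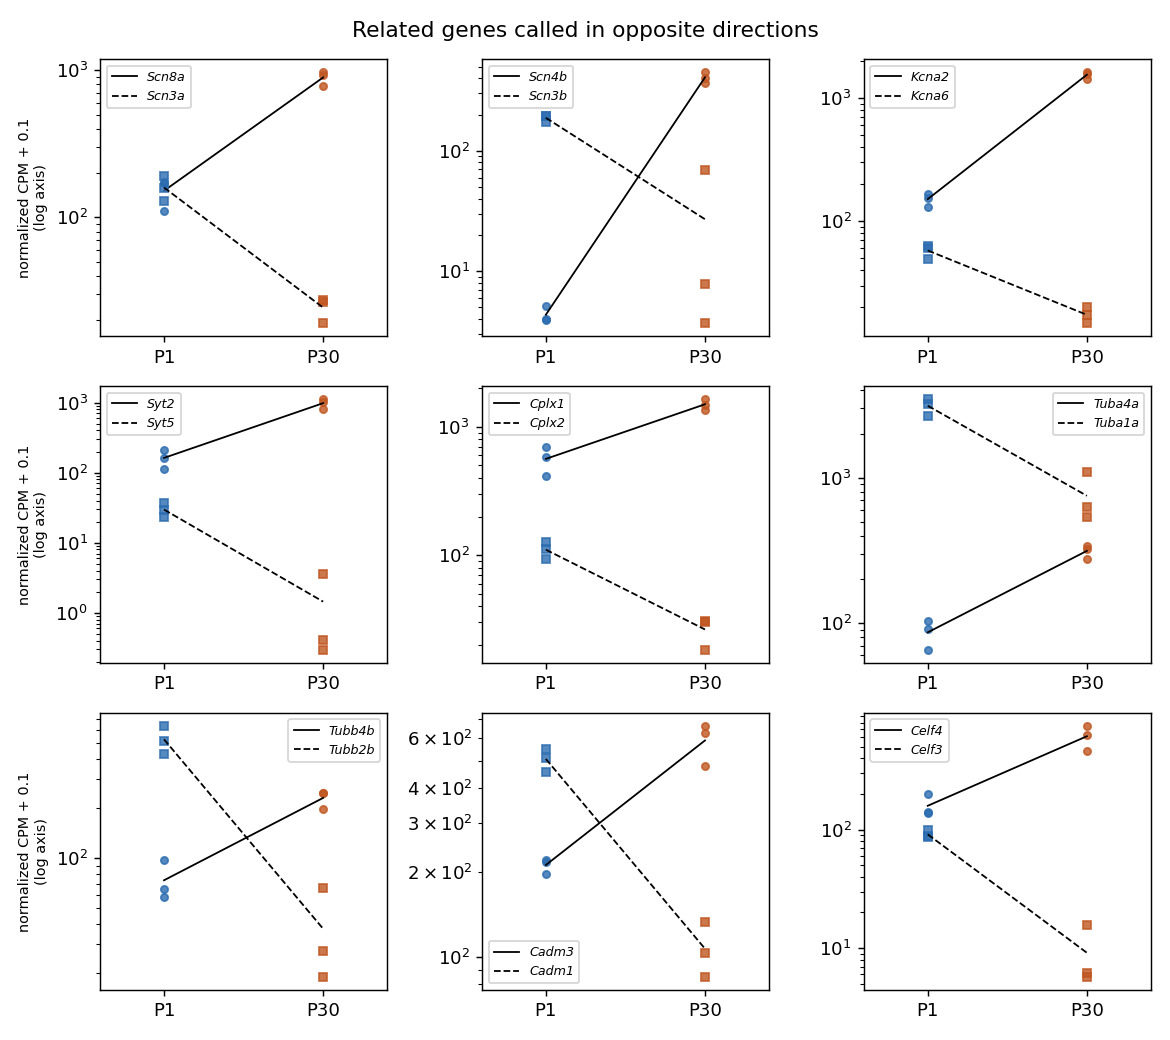
Normalized CPM plus 0.1 (log axes of differing range) of 9 pairs of related genes at P1 (blue) and P30 (orange), with circles and a solid line through the means for the gene that rose and squares and a dashed line for the gene that fell. In the panel of *Tubb4b* and *Tubb2b* the lines cross, while in that of *Tuba4a* and *Tuba1a* the squares stay above the circles.

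Most of the called genes of axon growth and guidance were lower at P30. Of 32 genes of axon growth, 13 were higher at P1 and 2 higher at P30 (median -0.92), and of 61 genes of axon guidance, 29 were higher at P1 and 7 higher at P30 (median -1.11). *Gap43*, the growth cone protein, had 485, 458 and 313 normalized CPM at P1 and 36.2, 2.69 and 5.32 at P30 (-5.38 ± 0.68, adjusted p = 1.6e-05). *Basp1*, a related membrane protein, fell by 3.63, and the collapsin response mediators *Crmp1* by 2.90 and *Dpysl3* by 2.27. *Dpysl3* had 1150, 1188 and 1223 at P1 and 292, 211 and 233 at P30 (SE 0.14, adjusted p = 1.3e-08), with little spread at either age. *Marcks*, *Marcksl1*, *Sox11*, *Sox4*, *Klf7*, *Dpysl4*, *Dpysl5*, *Tmsb10* and *Fscn1* were the other falls, and the 2 rises were of *Nrn1* (2.78 ± 0.22) and *Klf9* (2.98 ± 0.34). *Dpysl2* (0.46 ± 0.15), *Klf6*, *Atf3* and *Cfl1* were among the 17 genes not called. *Klf7* was not called without P1 replicate 1 or 2 or P30 replicate 2 or 3.

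In the guidance list, 10 Eph receptor genes and 5 ephrin genes were higher at P1 and none was higher at P30. *Neo1*, a receptor of netrin and repulsive guidance molecules, had 812, 836 and 801 normalized CPM at P1 and 202, 190 and 231 at P30, and fell by 1.98 (SE 0.14, adjusted p = 3.3e-08). The netrin receptor *Dcc* fell by 2.27, *Unc5b* by 2.90 and the semaphorin *Sema6a* by 2.63. Plexins, the semaphorin receptors, split, with *Plxna1* (-1.47), *Plxna3* (-3.49), *Plxnb1* and *Plxnb2* down and *Plxna2* (1.5), *Plxna4* (1.10) and *Plxnc1* (2.28) up. *Plxna4* was not called without both replicate 1 libraries. *Sema7a*, *Sema3f*, *Sema5b* and *Unc5a* also rose. Without P1 replicate 1 neither *Unc5a*, *Sema5b* nor *Plxnb2* was called, *Sema5b* and *Plxnb2* were also lost without P1 replicate 3, P30 replicate 1 or P30 replicate 3, and *Plxnb2* was lost without P30 replicate 2.

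Of 57 genes of cell adhesion and synaptic organizers, 15 were higher at P1 and 7 higher at P30 (median -0.62). *Ncam1* (-1.73), *Tenm3* (-1.67), *Chl1* (-3.32), *Nlgn1* (-1.69) and *Cntn5* (-2.74) fell. *Nrxn3*, a presynaptic neurexin, had 7.80, 10.3 and 48.6 normalized CPM at P1 and 392, 228 and 406 at P30, and rose by 4.53 ± 0.70 (adjusted p = 0.00012). *Pcdh9* rose by 3.51 ± 0.47, from 50.8, 43.6 and 174 to 710, 640 and 1152. P1 replicate 3 was the highest P1 library for both genes. Without P1 replicate 1 the calls toward P30 numbered 4. Of 11 genes of perineuronal nets and link proteins, 2 were higher at P30, *Hapln4* and the proteoglycan *Bcan* (5.60 ± 0.79), and 4 were higher at P1, *Ncan* (-2.19), *Vcan*, *Tnc* and *Has3*. *Bcan* had 0.484, 0.940 and 1.09 at P1 and 27.1, 60.7 and 37.8 at P30, while *Ncan* had 237, 170 and 187 and then 45.0, 44.4 and 40.3. Without both replicate 1 libraries the falls of this list numbered 2, and *Vcan* was not called without any 1 of the P30 libraries.

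Of 25 tubulins and microtubule proteins, 9 were higher at P1 and 4 higher at P30 (median 0.05). *Dcx* (ENSMUSG00000031285.14, chrX:143855842-143933311), the microtubule protein of migrating and growing neurons, had 1076, 1123 and 1143 normalized CPM at P1 and 28.5, 25.3 and 17.9 at P30, and fell by 5.53 (SE 0.26, adjusted p = 9.4e-10). The other falls were of *Tuba1a*, *Tubb2a*, *Tubb2b*, *Tubb5*, *Dclk1*, *Mapt* (tau), *Stmn1* and *Stmn4*. *Map1a*, the microtubule protein of mature neurons, had 1363, 1790 and 1150 at P1 and 6686, 6048 and 6384 at P30, and rose by 2.18 ± 0.18 (adjusted p = 1.4e-07). Its relative *Map1b*, at 11744, 11335 and 9065 and then 14171, 11440 and 13029, was not called. Among 7 intermediate filament genes, 1 was called in each direction. The heavy neurofilament *Nefh* had 414, 754 and 284 at P1 and 2433, 2150 and 2093 at P30 (2.32 ± 0.27), while *Nefl* (0.76 ± 0.14) and *Nefm* (0.34 ± 0.17) were not called. *Vim* fell by 1.63 (adjusted p = 0.036), and its call was lost without any 1 of P1 replicates 1 and 3 and P30 replicates 1, 2 and 3.

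Most of the called transcription factor genes were lower at P30. Of 57 neuronal transcription factor genes, 18 were higher at P1 and 2 higher at P30 (median -0.58). *Gata3*, required for SGN differentiation, had 114, 106 and 78.4 normalized CPM at P1 and 33.6, 20.1 and 15.4 at P30 (-2.11 ± 0.36). *Prox1*, which takes part in shaping type II innervation, had 521, 627 and 410 and then 169, 200 and 134 (-1.63 ± 0.24). *Runx1* (-2.29), *Eya1* (-1.65), *Isl1* (-1.24) and *Pou4f2* (-1.11) fell too, the last not called without P1 replicate 1 or P30 replicate 3. The rises were of *Etv1*, from 3.12, 2.71 and 0.730 to 43.3, 29.4 and 27.9 (4.11 ± 0.68), and of *Onecut1*, whose ages overlapped and which was not called without P1 replicate 1. Without P30 replicate 2 the rises numbered 4. *Scrt1* (0.66 ± 0.22), *Scrt2* (-0.20 ± 0.24) and *Shox2* (-0.87 ± 0.29) were not called.

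Of 30 nuclear receptor genes, 4 were called in each direction (13.3% each, near the background, median -0.01). The rises were of the mineralocorticoid receptor *Nr3c2* (4.76 ± 0.52), the estrogen-related receptors *Esrrb* (3.78 ± 0.65) and *Esrra* (3.41 ± 0.66) and the clock repressor *Nr1d2* (2.20 ± 0.33). *Nr3c2* had 1.48, 2.67 and 1.05 normalized CPM at P1 and 38.8, 52.3 and 44.3 at P30. *Esrrg*, the third estrogen-related receptor, had 511, 629 and 485 at P1 and 583, 534 and 682 at P30 (0.15 ± 0.17, adjusted p = 0.53), so that the ages overlapped at a level well above the P30 counts of its relatives. The thyroid hormone receptors *Thra* (-2.02 ± 0.22) and *Thrb* (-1.56 ± 0.36), the retinoic acid receptor *Rara* (-1.44) and *Nr4a2* (-3.48) fell. *Nr4a2* was not called without P1 replicate 1 or 2 or any 1 of the P30 libraries, and 2 falls of the list were called without both replicate 1 libraries. Of 26 markers of SGN subtypes, 2 were higher at P30 and 5 higher at P1 (median -0.43). Calretinin (*Calb2*) had 167, 206 and 193 at P1 and 436, 814 and 435 at P30 (1.5 ± 0.24), while *Calb1* (1.11), *Lypd1* (0.59 ± 0.29) and *Pou4f1* (0.80) were not called. Without both replicate 1 libraries the limma-voom fit gave *Calb1* a rise of 1.67 (adjusted p = 0.0018), which met the rule for a call.

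Of 43 genes of DNA methylation and chromatin, 15 were higher at P1 and 2 higher at P30 (median -0.68). The *de novo* DNA methyltransferase *Dnmt3a* had 388, 459 and 413 normalized CPM at P1 and 124, 146 and 126 at P30, and fell by 1.67 (SE 0.15, adjusted p = 5.6e-07). *Tet1*, *Tet2* (-1.66) and *Tet3* (-1.76), which oxidize methylated cytosine, fell as well, as did 5 HMG protein genes and the Polycomb methyltransferase *Ezh2*, which was not called without P30 replicate 1. The Polycomb readers *Cbx6* (3.12 ± 0.33) and *Cbx7* (3.20 ± 0.52) rose. Without P30 replicate 1 the rises of this list numbered 5. Of 34 genes of RNA-binding proteins and splicing regulators, 9 were higher at P1 and 4 higher at P30 (median -0.40). *Mbnl1* had 105, 118 and 120 at P1 and 369, 404 and 387 at P30 (1.76 ± 0.14, adjusted p = 1e-07), and *Mbnl2* rose by 1.59. The neuronal splicing regulator *Srrm4* fell by 1.34, and *Elavl4* (-0.16 ± 0.16) and *Rbfox2* (0.32 ± 0.14) were not called.

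The called genes of energy metabolism were mostly higher at P30, and those of ribosomal proteins were higher at P1. Of 25 genes of glycolysis and lactate, 13 were higher at P30 and 2 higher at P1 (median 1.01), with 8 toward P30 without P1 replicate 1. *Aldoa* had 233, 274 and 319 normalized CPM at P1 and 1056, 1040 and 1193 at P30 (2.01 ± 0.17, adjusted p = 2.8e-07), and *Pkm* rose by 1.85 ± 0.17. *Ldhb*, the lactate dehydrogenase subunit of oxidative tissues, had 263, 360 and 278 and then 924, 1150 and 1330 (1.91 ± 0.23). *Ldha*, the other subunit, had 132, 161 and 152 at P1 and 106, 14.3 and 13.8 at P30 (-2.17 ± 0.60, adjusted p = 0.011), and its call was lost without P30 replicate 2 or 3, by edgeR and by DESeq2. *Pfkp* (-1.56) fell.

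Of 79 nuclear genes of oxidative phosphorylation, 15 were higher at P30 and 0 higher at P1 (median 0.67). *Sdha* had 180, 257 and 264 normalized CPM at P1 and 552, 611 and 660 at P30 (1.4 ± 0.21), and *Cox4i1* rose by 1.08, which was not called without P30 replicate 3. The count fell to 8 without P30 replicate 3 and to 3 with library size as the only scaling. None of the 12 mitochondrially encoded protein genes was called (median 0.19), and all mitochondrially encoded genes, rRNA included, took 18.2% ± 1.61 of counts at P1 and 20.1% ± 2.11 at P30 (SD, n = 3, two-sided exact permutation p = 0.4). Of 84 cytosolic ribosomal protein genes, 21 were higher at P1 and 0 higher at P30 (median -0.76). Their share of counts was 0.979% ± 0.161 at P1 and 0.452% ± 0.0302 at P30 (SD, n = 3, two-sided exact permutation p = 0.1, the smallest that 3 against 3 allows), and the ages did not overlap. *Rpsa* had 196, 177 and 132 at P1 and 72.6, 69.2 and 74.0 at P30 (-1.22 ± 0.20). Without P1 replicate 1 the count was 10 and without both replicate 1 libraries it was 12, and with library size alone it was 47.

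Of 19 pump and exchanger genes, 6 were higher at P30 and 4 higher at P1 (median -0.48). *Slc24a2*, a potassium-dependent sodium-calcium exchanger, had 113, 209 and 174 normalized CPM at P1 and 1706, 2772 and 2660 at P30 (3.86 ± 0.25, adjusted p = 1.8e-08). Falls numbered 2 without P30 replicate 3. Of 21 calcium buffer genes, 8 were higher at P30 and 4 higher at P1 (median 1.02). *S100b* had 62, 46.6 and 45.7 at P1 and 274, 282 and 331 at P30 (2.50 ± 0.32), while the sum of glial markers in those libraries, given above, overlapped between ages. That sum includes *S100b* itself. *Pvalb* (parvalbumin) had 193, 240 and 224 and then 332, 476 and 569 (1.02 ± 0.24, adjusted p = 0.0042), and was not called without P1 replicate 1 or P30 replicate 3. *Hpca* (hippocalcin) fell from 39.4, 44.4 and 42.2 to 2.71, 0.913 and 0.287. Falls of this list numbered 2 without P30 replicate 2 and 1 without P30 replicate 3.

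Among the smaller lists, 7 of 23 cell death genes were higher at P1 and 1 higher at P30 (median -0.89). *Apaf1*, a gene of the apoptosome, had 14.5, 13.7 and 10.7 normalized CPM at P1 and 2.80, 3.65 and 5.27 at P30 (-1.83 ± 0.53) and was not called without P30 replicate 1, while the survival gene *Bcl2l2* rose by 1.56 ± 0.18. The falls numbered 4 without P1 replicate 2, 2 without P30 replicate 1, 4 without P30 replicate 2 and 3 without P30 replicate 3. Of 26 growth and imprinted genes, 6 were higher at P1 and 3 higher at P30 (median -0.39). *Nnat* (neuronatin) had 277, 243 and 321 at P1 and 14.3, 2.79 and 1.01 at P30 (-6.09 ± 0.74), and *Cdkn1c*, also an inhibitor of the cell cycle, had 124, 96.4 and 99.1 and then 4.23, 1.52 and 1.10 (-5.65 ± 0.80). Of 22 cell cycle genes, 4 were higher at P1, of which *Cdkn1a* and *Cdkn1c* encode inhibitors of division. Of 19 neurotrophin and growth factor receptor genes, 3 were higher at P1 and 0 higher at P30, and *Ntrk2* (0.03 ± 0.14) and *Ntrk3* (-0.37 ± 0.16), the receptors of BDNF and NT-3, were not called. With P30 replicate 1 left out, 1 gene of that list was higher at P30.

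Of 23 cholesterol synthesis genes, 4 were higher at P30 and 0 higher at P1 (median -0.28). The count toward P30 was 1 without P1 replicate 1, 2 without P1 replicate 2, 2 without P30 replicate 1 and 2 with library size alone. Without both replicate 1 libraries it was 0, and 1 gene was higher at P1. Of 27 immediate early and stress genes, 1 was higher at P30, the chaperone *Hsp90aa1* (1.25 ± 0.15), and 3 were higher at P1, *Npas4*, *Nr4a2* and *Ier5*, of which 1 was left without P30 replicate 3. *Fos*, *Jun* and *Egr1* were not called. Of 11 neuropeptide and granin genes, 3 were higher at P30, the prohormone convertases *Pcsk1* and *Pcsk2* and the inhibitor *Pcsk1n*, and 0 higher at P1. Of 14 long noncoding RNA genes, 2 were higher at P1, *Meg3* and *Snhg11*. *Meg3* had 2903, 3763 and 3916 normalized CPM at P1 and 940, 2335 and 888 at P30 (-1.5 ± 0.29), with P30 replicate 2 above the others, and the same library was the highest of the 6 for *Malat1*. Of the remaining marker lists, 1 of 7 connective tissue genes (*Fbln1*) and 1 of 2 blood and immune genes (*Cd68*) were higher at P1 and 0 at P30, none of 4 epithelial and 5 sex genes was called, and no endothelial gene passed the CPM filter. *Cd68* was not called without P30 replicate 1 or 3. With a replicate block on the 6 libraries all 7 connective tissue genes were higher at P1. *Fbln1* was the P1-higher gene of a cell type whose markers were highest in P1 replicate 1, and had 31.9, 51.5 and 25.0 at P1 against 0.487, 1.93 and 0 at P30, with the highest P1 value in replicate 2.

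The other ages of the series place these changes in time. They share the P1 and P30 libraries with the comparison, so values are given side by side with no test. On the scale of log2(normalized CPM + 0.5), the 1500 genes higher at P30 had moved a median of 56% of the way from P1 to P30 by P8 and 84.2% by P14. The 1482 genes higher at P1 had moved 51.2% of the way by P8 and 78.6% by P14. At P14, 336 of the rising genes (22.4%) were beyond their P30 level, as were 306 of the falling genes (20.6%). At E15.5, 963 of the rising genes (64.2%) were below their P1 level and 845 of the falling genes (57%) were above it. The genes were chosen by their P1 and P30 values, and no such share was computed over all genes.

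*Snap25* rose at each step, from a mean of 449 normalized CPM at E15.5 to 1507 in newborns, 4796 at P8, 8864 at P14 and 12118 in the mature neurons. *Kcna2* had 74.4 at E15.5, 679 at P8 and 1266 at P14. *Hapln4* had 5.19 at E15.5, 169 at P8 and 424 at P14, so that on the log2 scale the step from P1 to P8 held most of its change. *Bag3* had 4.67 at E15.5, 22.8 at P8 and 81.1 at P14, all below its P30 values. *Dcx* had 1380 at E15.5, 77.3 at P8 and 21.8 at P14, and *Cacna1e* had 1608 at E15.5, 124 at P8 and 30.0 at P14. These 2 genes were already lower at P1 than at E15.5. Some genes had their highest mean between the 2 ages compared. *Dnmt3a* had 203 at E15.5, 790 at P8 and 541 at P14, with the P8 and P14 means above its P1 libraries. *Slc17a7* had 25.7 at E15.5, 353 at P8 and 463 at P14, and *Hapln1*, which was not called, had 249 ± 422 (SD, n = 3) at E15.5, 255 at P8 and 208 at P14 against 24.5, 59.2 and 27 at P1 and 61.4, 87.1 and 71.9 at P30.

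**Figure D5:**
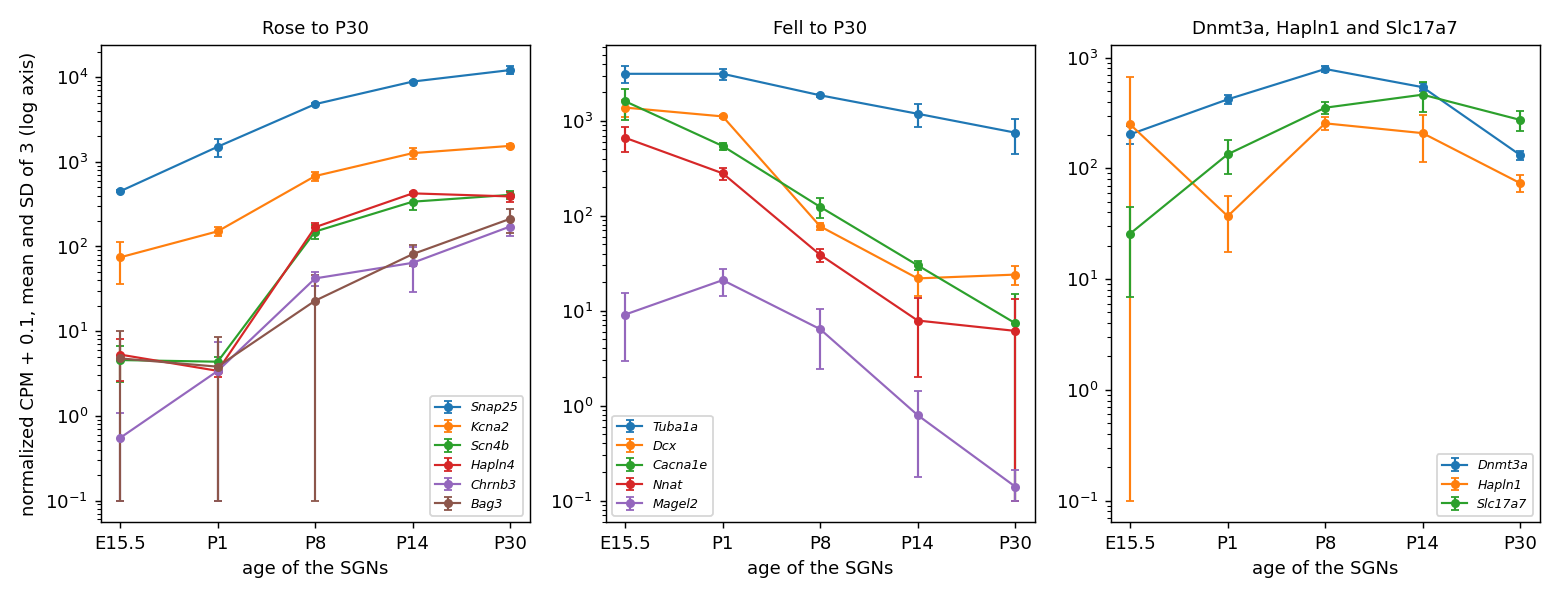
Normalized CPM plus 0.1 (log axis) of SGNs at 5 ages in order from E15.5 to P30, as the mean and SD of 3 libraries, for genes that rose to P30, genes that fell and 3 genes whose highest mean after birth lay at P8 or P14. Error bars that would reach below 0 end at the lower edge, and *Dnmt3a* is highest at P8, with 790.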

How the data were processed

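RNA was amplified (Ovation RNA-Seq V2) from hand-picked SGNs, and reads were aligned by the authors with STAR 2.4.0i to mm10 and counted with featureCounts on GENCODE genes. CASAVA is also named in the submitters' processing notes. The deposited values are raw counts per gene, not normalized, and 65.3 to 68.7% of the counts from 1 to 20 were even numbers in the 6 libraries. Strand, pair and multimapping settings are not given in the sources used here. Symbols were found for 52403 of 52550 identifiers (147 had none).

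Genes with CPM over 1 in all 3 libraries of P1 or P30 were fitted with TMM (edgeR 4.0.16) and limma-voom (limma 3.58.1, R 4.3.3) on the 15 SGN libraries of 5 ages, which share 1 estimate of the spread. Adjusted p-values are Benjamini-Hochberg values over all 13879 genes. A call needed an adjusted p under 0.05 and a change over 2-fold. Alternatives were edgeR's quasi-likelihood test, DESeq2 1.42.0, other scalings, filters, sample weights, a replicate block and leaving out each library. Leaving out both replicate 1 libraries was added after the data were seen. In counts simulated for this comparison over its 13879 genes, 5.97% of 2-fold, 40.3% of 4-fold and 66.7% of 8-fold changes and 0.0292% of unchanged genes were called. Smaller changes were thus often not called. Since a call needed an estimated change over 2-fold, the share for 2-fold changes reflects that limit as well as the spread. The simulated libraries varied independently, with none set apart as the replicate 1 libraries were. Intervals and the 3-count floor cover counting error only. Levels at other ages were planned in TPM, but are given as normalized CPM, because short rRNA-like genes took much of the TPM.

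The comparison, its members and the gene lists were chosen with earlier results of these data known. Genes were named if they had the 12 largest rises or falls among called genes with CPM over 10 at 1 age and libraries that did not overlap, if they were among the 3 called genes of a list with the smallest adjusted p in each direction or its 2 most abundant genes not called, if the study names them, if they were among the 10 most abundant, if they were on at 1 age only, or if they formed the leading opposite pair of a family. Other genes, among them *Gap43*, *Fgf1*, *Camk4*, *Scn1a*, *Scn9a*, *Kcna1*, *Marcks*, *Prox1*, *Esrra*, *S100b* and the remaining called members of a list, were named after their values were seen. Promoters are RefSeq sequences on GRCm38.p6, gene coordinates are of GRCm38, and motifs were searched by exact match. Some genes of these lists count toward the numbers but are not reported here by name.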

Additional observations from a re-analysis of the deposited data

How the results depend on the processing

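The direction of every called gene named in the text stayed under each alternative, and of 210 called genes named, 164 were called under all of them and 46 were lost under at least 1. With library size as the only scaling, 928 genes were higher at P30 and 2373 higher at P1. Leaving out 1 library gave 1139 to 1520 genes higher at P30 and 942 to 1401 higher at P1, the lowest number at P1 without SGN_P30 replicate 3. Without both replicate 1 libraries 958 genes were higher at P1, and 1 gene was on at P30 only and 11 at P1 only. With CPM over 5 as the limit, 1 gene was on at P30 only and 2 at P1 only over all 6 libraries, and 9 and 23 without the replicate 1 libraries. As a share of summed TPM the mitochondrial difference turned to -3.83 percentage points (exact permutation p = 0.6). With the 250 bases before the start alone, TGCTGAC was in 3.88% (3.02 to 4.97) of windows higher at P30 and 2.58% (1.87 to 3.55) of those higher at P1. These intervals overlapped, unlike those of the longer window, and the share of all windows was 2.97%. CCGGAAGT was in 2.89% (P30), 3.44% (P1) and 5.67% (all). In the same order TGACGTCA was in 2.96%, 2.01% and 2.63% and TGACTCA in 3.94%, 2.79% and 2.99%. TATAAA was in 5.91%, 7.23% and 6.21%. A shorter window holds fewer letters. A replicate block gave 1566 and 1673 genes over the 15 libraries and 1799 and 2123 over the 6. Deviations of same-numbered libraries correlated by 0.266, 0.0273 and 0.0874, not all over 0.1, so the numbers were not taken as a pairing; the replicate 1 libraries, which correlated best with each other, stood apart at both ages. With the block on the 6 libraries, genes higher at P1 numbered 8 for nuclear receptors, 10 for the cell cycle, 12 for immediate early genes and 7 for connective tissue, against 4, 4, 3 and 1. Apart from the values given here and beside each list, the cause of a lost call was not tested. Low counts limit what could be seen of genes near the 3-count floor.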

Other observations

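Some groups of genes were picked after the values were seen and are given as values, so their counts of calls follow in part from that choice. Of 28 striated muscle and sarcomere genes compared, 17 were higher at P30 and 3 higher at P1 (median 2.49). *Mb* (myoglobin) had 0.457, 0 and 0.0811 normalized CPM at P1 and 6.69, 4.72 and 11.1 at P30, and *Trim54*, a sarcomere-associated ubiquitin ligase, had 0.0538, 0.263 and 0.162 and then 10.6, 9.03 and 8.09. Both genes passed the CPM filter through P30 alone, and 26 of the 54 genes of the list did not pass it, so the counts describe the genes that passed. *Synm*, an intermediate filament gene, had 68.9, 88.2 and 85.4 at P1 and 362, 283 and 379 at P30, and the glucose transporter *Slc2a4* had 3.01, 3.80 and 3.32 and then 33.5, 34.6 and 71.4. The 3 falls were of *Actn3*, *Tnni1* and *Eno3*, and *Actn3* was not called without P30 replicate 1 or 3 and *Tnni1* not without P30 replicate 2 or 3.

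Of 36 chaperone genes, 11 were higher at P30 and 0 higher at P1 (median 0.57). *Bag3* and *Hspb8*, among those higher at P30, are also counted in the muscle list. *Hspa4l* had 117, 170 and 139 normalized CPM at P1 and 588, 748 and 723 at P30, and *Fkbp4* had 202, 206 and 160 and then 729, 640 and 775. Of 34 nicotinic, monoamine, peptide and opioid receptor genes, 10 were higher at P30 and 6 higher at P1 (median -0.24). *Chrm5*, a muscarinic receptor, had 3.71, 0.150 and 2.07 at P1 and 59.1, 46.2 and 86.7 at P30, and the dopamine receptor *Drd2* had 0.538, 0 and 0.162 and then 8.97, 4.67 and 14.4. The serotonin receptor *Htr7* fell from 33.5, 28.8 and 18.9 to 8.39, 12.7 and 3.93, and was not called without P30 replicate 3. Of 28 kinesin genes, 5 were higher at P30 and 4 higher at P1. The related motors *Kif21a* and *Kif21b* moved apart, *Kif21a* from 237, 237 and 225 to 937, 629 and 800 and *Kif21b* from 602, 565 and 552 to 62.3, 89.5 and 78.7.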
